A study of Homo sapiens with 4 samples.

Results

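The 9 genes described here are known to be switched on by interferon, and were followed across the 4 single-cell RNA sequencing (scRNA-seq) libraries of LNCaP cells and their enzalutamide-resistant derivatives. They were ISG15, IFI6, IFI27, IFITM1, IFITM2, IFITM3, BST2, ISG20 and IRF9, taken by symbol, and all 9 members were found among the 33538 genes listed. Their levels did not move as a group. IFITM2 and IFITM3 were lower in both resistant lines, with IFITM2 10.9-fold lower in RES-A and 4.84-fold lower in RES-B than in LNCaP, while IFI27 was 17.1-fold higher in RES-A. ISG15 was at most 1.29 times its LNCaP level in the library sums, but 5 cells of LNCaP-ENZ48 and RES-A held 44 to 212 ISG15 molecules each.

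Type I interferons bind a receptor made of IFNAR1 and IFNAR2, whose kinases JAK1 and TYK2 activate a complex that holds STAT2 and IRF9 and binds the interferon-stimulated response element (ISRE) and turns on a set of antiviral genes. ISG15 is a small ubiquitin-like protein that is attached to other proteins, the IFITM proteins hinder virus entry at membranes, BST2 (tetherin) holds budding virus at the cell surface, ISG20 is an RNA-degrading exonuclease, and IFI6 and IFI27 are small membrane proteins of the same family. Many of these genes are also read at a low level in tumour cells without added interferon.

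LNCaP is an androgen-sensitive line from a human prostate cancer metastasis, and enzalutamide (ENZ) is an anti-androgen drug. The groups were parental LNCaP in the solvent DMSO (0.1%, 48 h), LNCaP given 10 µM ENZ for 48 h (LNCaP-ENZ48), RES-A, which had been selected in stepwise rising ENZ, and RES-B, which had been selected in the related anti-androgen RD-162. Both resistant lines were kept in 10 µM ENZ, and each is 1 line from 1 selection. No group was given interferon according to the sources used here. There was 1 library per group. Without replicates no test could be made, and each difference is one between these libraries.

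After filtering, 14727 cells remained, between 1782 (LNCaP) and 4569 (RES-A) per library, with 50208831 to 60838227 unique molecular identifiers (UMIs, each standing for 1 captured RNA molecule). LNCaP cells were the deepest, with a median of 27080 UMIs against 12138 to 13676 elsewhere, and their lower UMI limit was higher. Pairs of libraries shared 2 to 9 cell barcodes, at most 0.281% of the smaller library. All 9 luminal epithelial markers were detected in every library, though KLK3 and KLK2 had only 2 and 5 UMIs in RES-A. Of the 7 immune markers, PTPRC, CD3E, MS4A1 and NKG7 were at 0 in all 4 libraries. CD68 had 15 (RES-B) to 58 (RES-A) UMIs, and LYZ and CD14 had at most 6 and 4. The summed immune markers reached 0.323 to 1.19 CPM, the counts scaled to an equal total in each library. Levels are UMIs summed over the cells of a library, in CPM. Brackets hold 95% intervals, which cover counting error only. With a mean of at least 10 CPM over the 4 libraries, 7460 genes were counted as expressed, 5 members among them (ISG15, IFI6, IFITM2, IFITM3 and ISG20).

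To see what the members share in sequence, the stretch from 250 bases before to 50 bases after each RefSeq start (GRCh38.p14) was searched on both strands for the ISRE letters, taken as GAAA repeated after any 2 bases. Of 35116 such promoters, 3.57% held them. A promoter was found for 8 members, IFITM2 having none in the table, and 7 of these 8 held the letters, all but IRF9. The windows below come from members whose values the results turn on, and capitals mark the ISRE letters, which overlap in ISG15 and are read from the opposite strand in the left match of IFI27.
ISG15 (chr1:1013369-1013414, plus strand): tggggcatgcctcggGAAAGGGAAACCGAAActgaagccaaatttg
IFI6 (chr1:27672261-27672363, minus strand): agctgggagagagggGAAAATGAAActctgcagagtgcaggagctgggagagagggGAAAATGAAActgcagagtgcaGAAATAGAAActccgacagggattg
IFI27 (chr14:94110613-94110665, plus strand): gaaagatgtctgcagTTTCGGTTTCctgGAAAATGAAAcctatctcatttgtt
IFITM3 (chr11:320871-320927, minus strand): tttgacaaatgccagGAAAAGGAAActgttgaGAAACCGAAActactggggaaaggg
ISG20 (chr15:88638932-88638971, plus strand): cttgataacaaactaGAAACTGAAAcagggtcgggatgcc

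The letters for the GAS element, TTCNNNGAA, known from the response to interferon gamma, were present in 7.66% of promoters and in those of IFI27, IFITM1, BST2 and IRF9. The windows of ISG15, IFITM3 and ISG20 all hold the ISRE letters, and these genes stood at different ratios in the resistant lines, as given next. Among the other 194 expressed genes with the letters in a promoter, 4.12% were at least 2-fold lower in RES-A than in LNCaP, against 4.23% of all 5953 expressed genes with a promoter in the table. In RES-B these shares were 2.58% and 2.52%. At least 2-fold higher were 4.64% against 3.41% in RES-A, and 5.67% against 4.60% in RES-B.

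**Figure D1:**
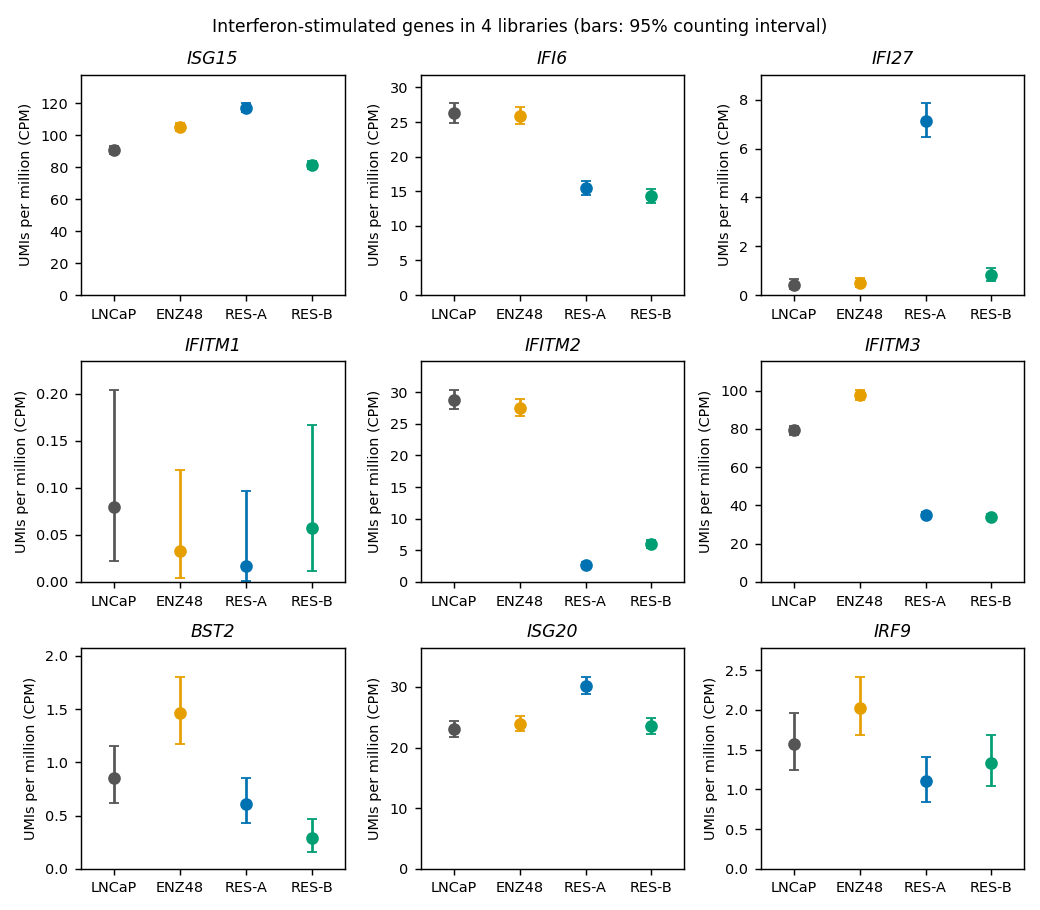
Level of each member in CPM (vertical axes, each from 0) in the 4 libraries, with points for the summed UMIs and bars for the 95% counting interval. IFITM2 and IFITM3 were lower in RES-A and RES-B, IFI27 stood out in RES-A at 7.13 CPM, and IFITM1 had at most 4 UMIs in any library.

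The IFITM genes lie side by side on chromosome 11 (GRCh38; IFITM2 303655 to 309397, IFITM1 310041 to 315272, IFITM3 319676 to 329475). IFITM2 stood at 28.8 CPM in LNCaP and 27.5 in LNCaP-ENZ48, against 2.65 in RES-A and 5.95 in RES-B. Untreated and briefly treated cells did not separate beyond counting error, at a log2 ratio of -0.06 [-0.17, 0.04]. Both resistant lines were far below them, with log2 ratios to LNCaP that reached -3.44 [-3.69, -3.20] in RES-A and -2.27 [-2.46, -2.10] in RES-B. RES-B was 2.25-fold above RES-A, at a log2 ratio of 1.17 [0.88, 1.46], and at 0.99, just under 2-fold, with every cell thinned to 5000 UMIs.

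IFITM3 was the more abundant of the pair. Its level was 79.2 CPM in LNCaP and 97.7 in LNCaP-ENZ48, against 35.0 in RES-A and 34.1 in RES-B. After 48 h of ENZ it was slightly higher (0.30 [0.24, 0.36] on the log2 scale), whereas RES-A (-1.18 [-1.26, -1.10]) and RES-B (-1.22 [-1.30, -1.13]) were lower and not separated from each other (-0.04 [-0.13, 0.06]). IFITM1 was nearly absent, with 4 UMIs in LNCaP and 2 in LNCaP-ENZ48, against 1 in RES-A and 3 in RES-B, and no ratio of it had an interval that left out 0. The 3 genes are close copies and reads that fit several genes are dropped in counting, so their levels are uncertain. How many reads were dropped was not measured in any library, and the part of this loss in the ratios was not tested.

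IFITM2 and IFITM3 were also compared with their surroundings, taken as up to 25 expressed genes on either side. The 29 genes around IFITM2 had median log2 ratios of -0.33 (RES-A) and -0.31 (RES-B), so the neighbourhood as a whole was somewhat lower as well. IFITM2 lay below all 29 in both lines. IFITM3 lay below all 29 in RES-B and below 28 of them in RES-A.

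IFI27 (chromosome 14, 94104836 to 94116695) had the highest ratio of any member. It had 21 UMIs in LNCaP (0.418 CPM), 29 in LNCaP-ENZ48 (0.477 CPM), 409 in RES-A (7.13 CPM) and 43 in RES-B (0.818 CPM). RES-A was thus alone above 1 CPM, with a log2 ratio to LNCaP of 4.09 [3.46, 4.80] and with RES-B below it by -3.12 [-3.61, -2.67]. The interval of RES-B against LNCaP also left out 0 (0.97 [0.18, 1.79]), and that of LNCaP-ENZ48 did not (0.19 [-0.67, 1.07]).

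The gene beside IFI27, its relative IFI27L2 (94127779 to 94130253), was the sole neighbour of 50 with a ratio above that of IFI27 in RES-A. IFI27L2 was at 1.95 CPM in LNCaP and 8.25 in LNCaP-ENZ48, against 37.0 in RES-A and 18.9 in RES-B, with log2 ratios to LNCaP of 2.08 [1.76, 2.41], 4.25 [3.95, 4.55] and 3.28 [2.98, 3.59]. IFI27L1 on the other side (94081301 to 94103846) was instead lower in RES-A (-0.74 [-0.88, -0.60]) and RES-B (-0.50 [-0.63, -0.36]). Over all 50 neighbours the median ratio in RES-A was 0.13. At an equal depth of 5000 UMIs per cell, 21.9% of the 160 RES-A cells with an IFI27 UMI also held IFI27L2, against 15.6% of the cells without.

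IFI6 (chromosome 1, 27666064 to 27672212), of the same family, took the opposite course to IFI27. It stood at 26.3 CPM in LNCaP and 25.9 in LNCaP-ENZ48, against 15.4 in RES-A and 14.3 in RES-B. Short treatment left no difference beyond counting error (-0.02 [-0.12, 0.09]). RES-A (-0.77 [-0.89, -0.64]) and RES-B (-0.88 [-1.01, -0.75]) were lower, by less than 2-fold, and did not separate from each other (-0.11 [-0.25, 0.03]). The 50 genes around IFI6 had a median ratio of 0.44 in RES-B, where 49 of them lay above IFI6.

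ISG15 (chromosome 1, 1001138 to 1014540) was the most abundant member in each library. Its level was 90.7 CPM [88.1, 93.4] in LNCaP, 105 CPM [103, 108] after short treatment, 117 CPM [114, 120] in the RES-A line but 81.3 CPM [78.8, 83.7] in RES-B. The order was RES-B, LNCaP, LNCaP-ENZ48, RES-A, with small steps that were beyond counting error in CPM. Log2 ratios to LNCaP were 0.22 [0.16, 0.27], 0.37 [0.32, 0.42] and -0.16 [-0.22, -0.10] for LNCaP-ENZ48, RES-A and RES-B. The step between LNCaP-ENZ48 and RES-A depended on the scaling, since their ratios to LNCaP were 0.31 and 0.32 with TMM and 0.32 and 0.33 with DESeq2 size factors. The step between LNCaP and LNCaP-ENZ48 depended on cells and depth. Its log2 ratio was 0.10 in cells called G1 and 0.11 with every cell thinned to 5000 UMIs. Part of the excess in LNCaP-ENZ48 and RES-A lay in 5 cells, described below, and without them the levels were 103 and 112 CPM. The 29 genes around ISG15 had a median of 0.43 in RES-B, and 28 of them lay above it.

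ISG20 (chromosome 15, 88635670 to 88656483) had 23.1 CPM in LNCaP and 23.9 in LNCaP-ENZ48, against 30.2 in RES-A and 23.5 in RES-B. RES-A was the library set apart, at a log2 ratio of 0.39 [0.28, 0.50] to LNCaP. The ratios of LNCaP-ENZ48 (0.05 [-0.06, 0.17]) and RES-B (0.03 [-0.09, 0.14]) held 0, and both changed sign under another scaling or depth. In RES-A, 44 of the 45 genes around ISG20 lay below it, and their median was -0.64.

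BST2 and IRF9 were near the detection limit. BST2 (chromosome 19, 17402939 to 17405630) had 43 UMIs in LNCaP and 89 in LNCaP-ENZ48, against 35 in RES-A and 15 in RES-B. LNCaP-ENZ48 was above LNCaP (0.77 [0.23, 1.33]) and RES-B below (-1.59 [-2.54, -0.71]), while RES-A was not separated from LNCaP (-0.49 [-1.18, 0.19]). With every cell thinned to 5000 UMIs the RES-B ratio of BST2 was -0.60, from only 6 UMIs in RES-B and 4 in LNCaP. Over all alternatives it ran from -2.22 to -0.60. IRF9 (chromosome 14, 24161234 to 24168043), the DNA-binding partner of STAT2, had 79, 123, 63 and 70 UMIs in the same order of libraries. Its lowest ratio to LNCaP was in RES-A (-0.52 [-1.02, -0.02]). Those of LNCaP-ENZ48 (0.36 [-0.06, 0.79]) and RES-B (-0.24 [-0.73, 0.24]) held 0.

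**Figure D2:**
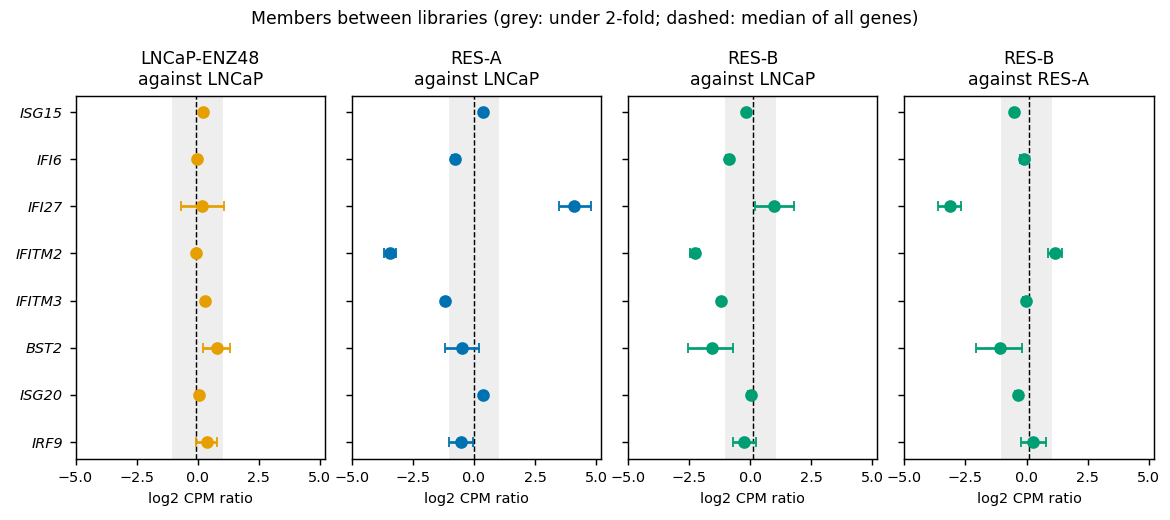
Log2 CPM ratio (horizontal axes) of 8 members in the 4 comparisons, with points for the ratio, bars for the 95% counting interval, grey for less than 2-fold and a dashed line for the median of all expressed genes. IFITM1 is left out for its 1 to 4 UMIs; IFI27 at 4.09 and IFITM2 at -3.44 in RES-A lie furthest from 0.

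Counted over the 5 expressed members, none was at least 2-fold higher or lower in LNCaP-ENZ48 than in LNCaP, where 0.335% of all expressed genes were higher and 0.576% lower. In RES-A 2 of 5 were lower (IFITM2 and IFITM3) and 0 higher, against 4.24% lower and 3.71% higher among all expressed genes. RES-B had the same count, 2 of 5 lower (IFITM2 and IFITM3) and 0 higher, against 3.12% and 4.73%. Between the resistant lines, 1 of 5 (IFITM2) was higher in RES-B, and 0 were lower, against 3.46% and 1.72%. The comparisons with LNCaP share that library. The median log2 ratio of the 5 was 0.05 after 48 h of ENZ, and -0.77 and -0.88 in the lines RES-A and RES-B, beside -0.07, 0.02 and 0.11 for all expressed genes, and -0.11 in RES-B against RES-A beside 0.09. The largest ratio, that of IFI27, is outside these counts since its mean of 2.21 CPM was below the limit. IFITM2 passed the limit, at a mean of 16.2 CPM, through its levels in LNCaP (28.8 CPM) and LNCaP-ENZ48 (27.5 CPM). Its levels of 2.65 CPM (RES-A) and 5.95 CPM (RES-B) were themselves below 10 CPM. The limit thus let in a member that was high in LNCaP and left out the one that was high in RES-A. The counts and medians for the resistant lines depend partly on this choice.

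Shares of cells with at least 1 UMI were compared with every cell thinned to 5000 UMIs, since LNCaP cells were deeper. ISG15 was detected in 36.9% [34.6, 39.2] of LNCaP and 38.6% [37.1, 40.0] of LNCaP-ENZ48 cells, and in 41.0% [39.6, 42.4] of RES-A but 30.6% [29.2, 32.1] of RES-B cells. Unthinned, the shares were 88.6%, 72.1%, 70.0% and 59.9%, with LNCaP, whose cells were deepest, now highest. IFITM3 was found in 33.3%, 37.2%, 15.8% and 14.04% of cells in the same order, and IFITM2 in 13.0%, 13.1%, 1.49% and 2.98%. Unthinned, IFITM2 was found in 52.1%, 30.2%, 3.09% and 7.17%.

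For IFI6 the thinned shares were 12.7%, 12.2%, 7.62% and 6.77%, and for ISG20 11.4%, 10.3%, 14.1% and 11.7%. IFI27 was found in 3.502% [2.99, 4.08] of RES-A cells and in 0.112% to 0.295% elsewhere. In RES-A it was spread thinly, with at most 4 UMIs in a cell and a variance over mean of 1.01, near the value of 1 that random sampling gives. No cell type that lacks these genes was in the libraries, so the share that free RNA gives was not measured. The number of different members detected per cell also differed. Cells without any member UMI made up 27.9% of LNCaP and 26.2% of LNCaP-ENZ48, against 38.5% of RES-A and 47.9% of RES-B.

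**Figure D3:**
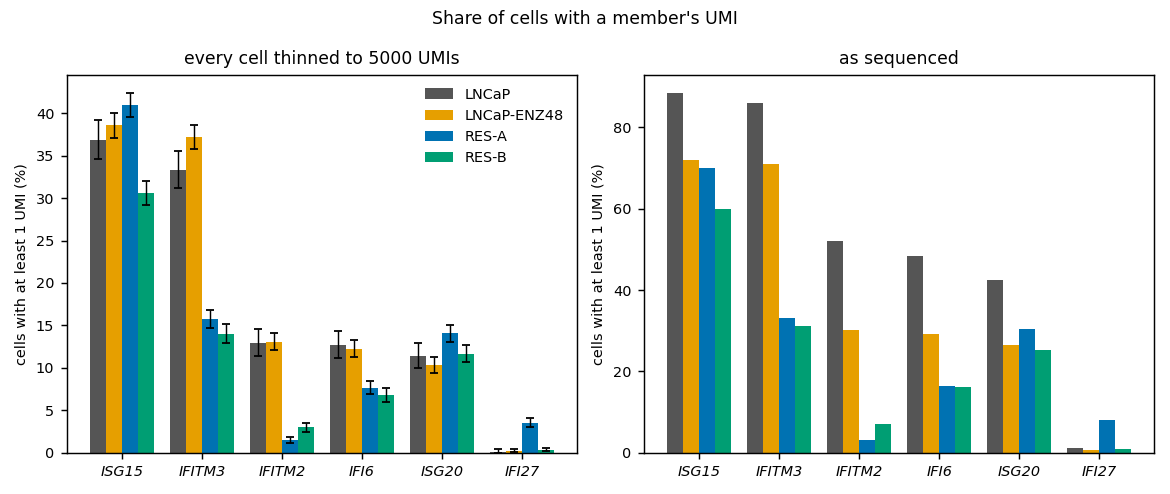
Share of cells with at least 1 UMI of 6 members (vertical axes, %), by library, with every cell thinned to 5000 UMIs (left, bars with 95% binomial intervals) and as sequenced (right). IFITM2 went from 13.0% in LNCaP to 1.49% (RES-A) and 2.98% (RES-B) at equal depth, and LNCaP, whose cells were deepest, is highest for 5 of the 6 in the right panel.

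To ask whether the members varied together from cell to cell, their counts were correlated over the cells of each library at 5000 UMIs. Among the 10 pairs of the 5 expressed members, Pearson's r ran from -0.06 to 0.04 in LNCaP, from -0.02 to 0.04 in LNCaP-ENZ48, from -0.01 to 0.03 in RES-A and from -0.01 to 0.05 in RES-B. At these sparse counts such values are no finding. The genes with the highest r to the summed members, MT-CYB in LNCaP-ENZ48 (0.07), MT-CO2 in RES-A (0.09) and PPIB in RES-B (0.08), were hardly above 0 either. Cells of 1 library share its preparation, and no p is given.

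ISG15 differed with the cell cycle phase called for a cell. Cells called G2/M had 67.2 CPM in LNCaP against 98.3 in G1, 95.7 against 105 in LNCaP-ENZ48, 95.9 against 124 in RES-A and 52.6 against 88.8 in RES-B. Cells called S had 79.4, 129, 117 and 84.2 CPM in the same order, above G1 in LNCaP-ENZ48 alone. The cells with most ISG15, described below, were kept in these levels. The S level of LNCaP-ENZ48 came from 385 UMIs in 182 cells, and a single cell of that library held 97. The phase called for that cell was not looked up. Whether the S level lies above G1 without that cell is therefore not known. ISG20, IFITM3 and IFITM2 were also lower in G2/M in all 4 libraries. ISG20 had 18.6 against 24.95 CPM in LNCaP and 12.2 against 26.0 in LNCaP-ENZ48, with 18.3 against 34.3 in RES-A and 16.3 against 25.7 in RES-B. IFITM3 had 66.0 against 82.9 CPM in LNCaP and 26.8 against 37.8 in RES-A, and IFITM2 had 22.0 against 30.5 and 1.77 against 3.01. For IFITM2 the intervals of the 2 phases overlapped in LNCaP-ENZ48 (24.6 against 28.2 CPM) and in RES-A. In LNCaP-ENZ48 those of ISG15 and of IFITM3 (89.7 against 99.5 CPM) overlapped slightly as well. IFI6 had 31.7 against 25.2 CPM in LNCaP-ENZ48 and overlapping intervals in the other libraries. Phase shares differed between libraries, with 70.6% (RES-A) to 84.4% (LNCaP-ENZ48) of cells in G1.

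A few cells stood apart in their ISG15 count. The highest cell of LNCaP held 14 ISG15 UMIs and that of RES-B 12. In LNCaP-ENZ48, 2 cells held 97 and 73, and the next 13. In RES-A, 3 cells held 212, 61 and 44, and the next 16. At 5000 UMIs per cell, the variance over mean of ISG15 was 1.07 in LNCaP and 1.92 in LNCaP-ENZ48, against 7.06 in RES-A and 1.10 in RES-B, where genes of like level had medians of 1.03 to 1.04. The higher values in LNCaP-ENZ48 and RES-A include these 5 cells. For IFI6 the highest cell was in RES-B instead, with 18 UMIs, against 5 in LNCaP, 5 in LNCaP-ENZ48 and 9 in RES-A.

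**Figure D4:**
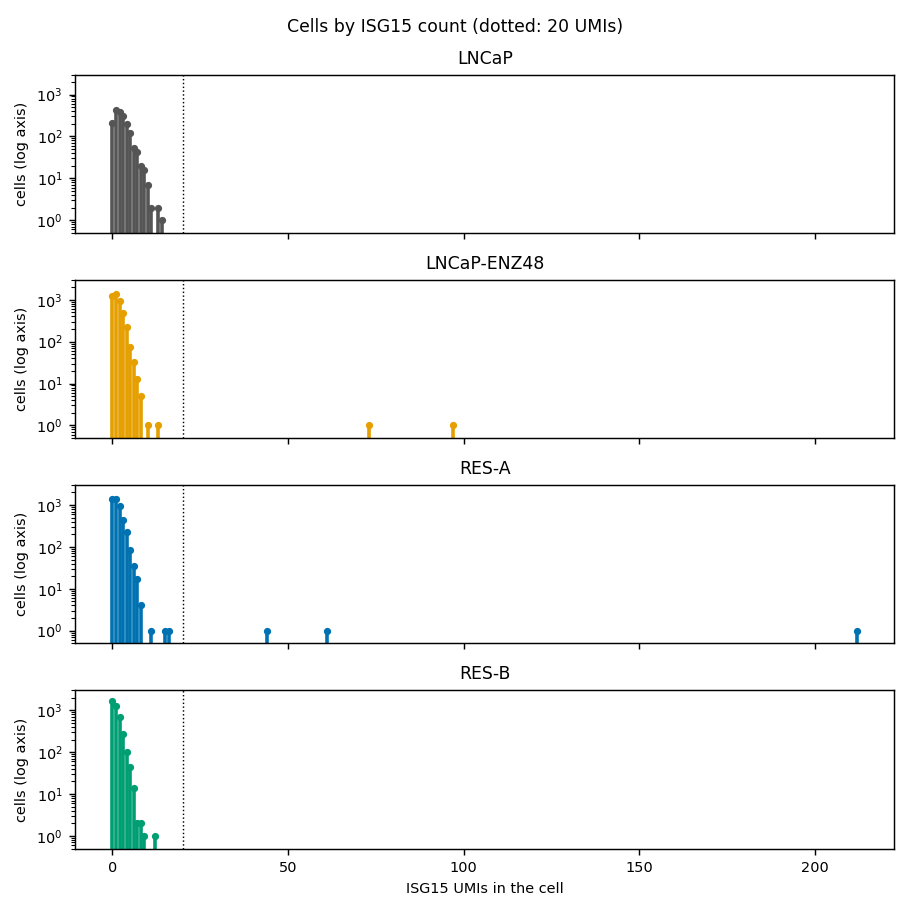
Number of cells (vertical axes, log scale) by ISG15 UMIs in the cell (horizontal axis) in each library, with a dotted line at 20 UMIs. The 2 cells of LNCaP-ENZ48 and the 3 of RES-A lie between 44 and 212 UMIs, and all LNCaP and RES-B cells lie at 14 or below.

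With a limit of 20 ISG15 UMIs, chosen after the values were seen, such cells made up 0.0463% [0.00561, 0.167] of LNCaP-ENZ48 and 0.0657% [0.0135, 0.192] of RES-A. There were 0 of 1782 in LNCaP, which allows a share of up to 0.168%, and 0 of 4061 in RES-B, which allows up to 0.0739%, both as 3 cells of the total. The exact binomial upper limits that match the brackets were 0.207% and 0.0908%. A difference between libraries in how often they occur was therefore not detectable at these cell numbers. None of the barcodes removed by the cell filter reached the limit. These 5 cells held 2.65% of the ISG15 UMIs of LNCaP-ENZ48 and 4.72% of those of RES-A.

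In the LNCaP-ENZ48 cell with 97 ISG15 UMIs, other interferon-induced genes were high as well. It held 28 UMIs of OASL, 21 of IFIT3, 18 of IFIT1, 17 of IFIT2, 11 of HERC5, 7 of RSAD2 and 6 of DDX58 among 15604 UMIs. IFIT1, IFIT2 and IFIT3 encode proteins that bind foreign RNA, OASL and RSAD2 are antiviral effectors, HERC5 attaches ISG15 to proteins, and DDX58 encodes the RNA sensor RIG-I. Over the 40 antiviral genes listed besides the members it held 132 UMIs, where the other cells of the library had a median of 4 and at most 16.

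The RES-A cell with 212 ISG15 UMIs, which were 2.35% of its 9029 UMIs, was similar. It held 23 UMIs of IFIT1, 16 of OASL, 12 of IFIT2, 11 of IFIT3, 9 of IFI6, 9 of ISG20 and 7 of HERC5, and 83 over the 40 antiviral genes. The other cells of RES-A had a median of 4 and at most 19.

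The remaining 3 cells had 9 antiviral UMIs each and thus ISG15 without the full set. In the RES-A cell with 61 ISG15 UMIs these included 5 of IFIT1, 2 of OASL and 1 of IFIT3. RARRES3, a gene known to respond to retinoids and interferon, held 16 UMIs in the LNCaP-ENZ48 cell with 73 ISG15 UMIs, and 11 and 6 in the RES-A cells with 61 and 44. It also held 13 in the RES-A cell with 212. Cells without such ISG15 counts held at most 3 RARRES3 UMIs in LNCaP-ENZ48 and 7 in RES-A.

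Not all members were high in these cells. Over the 5 cells IFITM2 and IFITM1 had 0 UMIs, IFITM3 had 0 to 5 and IFI27 0 to 1. All 5 held KRT8, KRT18 and EPCAM and no PTPRC, and none held a UMI of the 9 interferon genes. Their mitochondrial shares, 9.02% to 13.9%, were within the filter, and their totals of 9029 to 15604 UMIs were near the library medians.

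Single cells also set some library levels. OASL was at 0.0996 CPM in LNCaP and 0.575 in LNCaP-ENZ48, against 0.506 in RES-A and 0.171 in RES-B. A single cell held 80.0% of the OASL UMIs of LNCaP-ENZ48 and another 55.2% of those of RES-A, and without the 5 cells its levels were 0.0987 and 0.174 CPM. IFIT3 went from 0.953 to 0.608 CPM in LNCaP-ENZ48 when they were left out, beside 0.637 in LNCaP. The levels of IFITM2, IFITM3 and IFI27 moved by less than their counting intervals without those cells.

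The pathway around the members was described with the other lists. The 9 interferon genes listed had 0 UMIs in all 4 libraries. Of 9 receptor and kinase genes, 3 were expressed and 0 passed 2-fold in any comparison. IFNAR1 was higher in RES-A (0.52 [0.41, 0.63]) and RES-B (0.80 [0.69, 0.90]) than in LNCaP. JAK1 was low throughout, at 2.75 CPM in LNCaP and 2.74 in LNCaP-ENZ48, against 3.35 in RES-A and 4.87 in RES-B. TYK2 stood at 8.62, 6.05, 9.24 and 9.26 CPM in the same order. JAK2, used by the interferon gamma receptor, was lower in RES-A (-1.78 [-2.05, -1.505]) and RES-B (-1.33 [-1.58, -1.08]), from 8.84 CPM in LNCaP to 2.58 and 3.52.

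Of 7 transcription factors besides IRF9, 3 were expressed and 0 passed 2-fold. STAT2 ranged from 5.06 to 7.46 CPM. Of 6 genes that attach or remove ISG15, 3 were expressed and 0 passed. USP18, which removes ISG15 and restrains the receptor, had 11.1, 11.2, 12.2 and 9.21 CPM in the same order. UBA7, which activates ISG15, had 0.378, 0.707, 1.12 and 0.399 CPM. The conjugating enzyme UBE2L6, below the expression limit and singled out after its values were seen, had 10.0, 13.4, 3.78 and 1.31 CPM, lower in RES-A by -1.40 [-1.64, -1.17] and in RES-B by -2.93 [-3.32, -2.57].

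Of the 40 antiviral genes, 8 were expressed, and LGALS3BP, a secreted glycoprotein gene, alone of these passed 2-fold. It was higher in RES-A (3.96 to 43.6 CPM, 3.46 [3.25, 3.67]) and in RES-B (12.5 CPM, 1.66 [1.43, 1.89]), and lower in RES-B than in RES-A (-1.80 [-1.93, -1.68]). Its mean of 16.7 CPM reached the limit through the resistant lines, where it was high, with 6.72 CPM in LNCaP-ENZ48. Its place in this count depends on that. The median of the 8 was -0.06, 0.12 and 0.08 in LNCaP-ENZ48, RES-A and RES-B, near that of all genes. This median leaves out the genes below the limit, some of which moved further. Named after their values were seen, IFI44 had log2 ratios to LNCaP of -3.36 (RES-A) and -6.56 (RES-B, 1 UMI). SAMD9 had -2.31 and -1.49. Higher instead were OAS1, at 1.27 and 1.12, and SP100, at 0.68 and 1.94. Each of these intervals left out 0. The remaining genes below the limit are not summarised here. Of 9 inhibitors, 6 were expressed, and IRF2BP2, a corepressor, alone passed, in RES-B (39.1 to 129 CPM, 1.72 [1.65, 1.79]). Of 10 sensors and adaptors, 3 were expressed and 0 passed.

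Of 21 genes induced by interferon gamma, 5 were expressed, and TAPBP, which helps load peptides onto MHC class I, alone passed, in RES-B (16.6 to 42.4 CPM, 1.36 [1.24, 1.47]). CD274, the gene of PD-L1, was below the expression limit and is named after its values were seen. It had 216 UMIs in LNCaP and 251 in LNCaP-ENZ48, against 4 in RES-A and 47 in RES-B. Like JAK2 (4984390 to 5129948) it lies on chromosome 9 (5450503 to 5470566), and both were lower in the resistant lines. Of 5 relatives of the members, 3 were expressed, and IFI27L2 alone passed, higher in all 3 libraries than in LNCaP. Its mean of 16.5 CPM reached the limit through RES-A (37.0 CPM) and RES-B (18.9 CPM), as it stood at 1.95 CPM in LNCaP. Its place in this count thus depends on the lines where it was high.

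**Figure D5:**
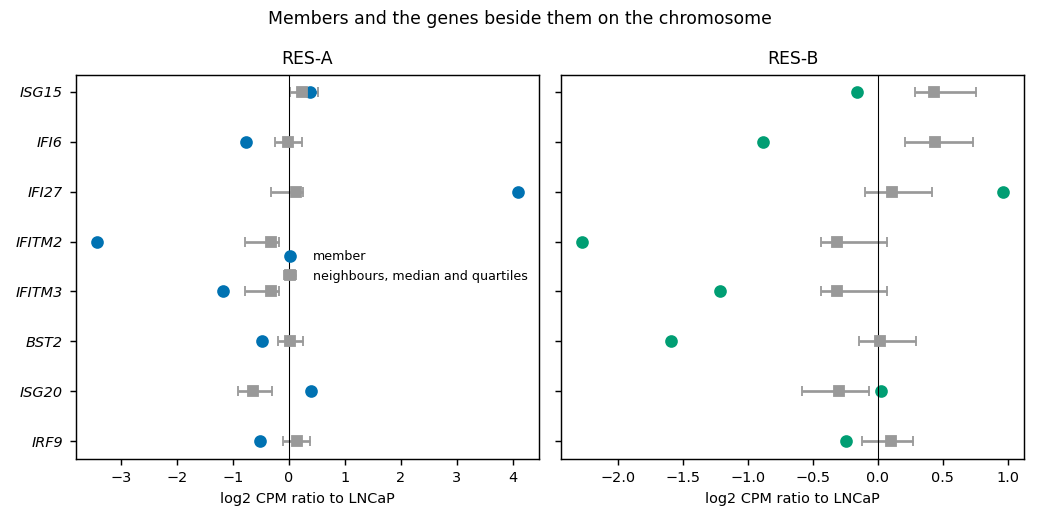
Log2 CPM ratio to LNCaP (horizontal axes) of 8 members, as coloured points, and of the expressed genes around each, as grey squares (median) with bars (quartiles), in RES-A and RES-B. IFITM2 lay below all 29 of its neighbours in both lines, and ISG20 at 0.39 in RES-A lay above neighbours with a median of -0.64.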

How the data were processed

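The deposited values were UMI counts per gene and cell barcode, made by the authors with Cell Ranger 3.0.2 on GRCh38 from 10x 3' libraries of sorted cells, as the file headers and submitters' processing notes give them. Cells passed the limits per library of the study. LNCaP cells had 3000 to 7000 genes and 16000 to 50000 UMIs, the others 1500 to 5000 genes and 5000 to 25000 UMIs, with mitochondrial shares under 15% in the untreated and briefly treated cells, 17% in RES-A and 20% in RES-B. Doublets were not removed, and an alternative left out the 5% of cells with most UMIs. CPM intervals were exact Poisson, log2 ratios had exact conditional binomial (Clopper-Pearson) intervals, and shares exact binomial ones. A count of 0 was set to 3 UMIs per library. The study's test over cells was left out because cells are not replicates. Phases were called with scanpy 1.11.5 and the lists of Seurat. Counting of 3' tags does not scale with gene length. Neighbours and gene coordinates came from GENCODE 44 on GRCh38, matched by gene ID. The ratio and thinning code was tested on simulated data.

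The members and lists were chosen with earlier results of these data known. Besides all members, the rule named list genes past 2-fold among expressed genes, JAK1, JAK2, TYK2, STAT2, USP18 and UBA7, and the genes most correlated with the members, of which the leading 1 is given for 3 libraries. Some genes that the rule names are not reported here. IFNAR1, IFI27L1, UBE2L6, CD274, OASL, IFIT1, IFIT2, IFIT3, HERC5, RSAD2, DDX58 and RARRES3 were named after their values were seen. So were IFI44, SAMD9, OAS1 and SP100. Alternatives covered filters, scaling (edgeR's TMM and DESeq2 size factors, used for scaling factors alone), cells and depth.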

Additional observations from a re-analysis of the deposited data

Results flagged for a closer look

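Of the members and lists, 3 expressed genes of 36 lay on opposite sides of LNCaP in the resistant lines with intervals that left out 0 on either side, and these differences were not tested. ISG15 had log2 ratios of 0.37 (RES-A) and -0.16 (RES-B). LY6E, an interferon-induced membrane protein gene, had 0.36 and -0.45. PIAS1, an inhibitor of interferon signaling, had -0.20 and 0.17. Its RES-B interval was [0.05, 0.30], beside a median of 0.11 for all expressed genes. The ratios of LY6E and PIAS1 were not recomputed with another scaling.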

How the results depend on the processing

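No paired analysis was possible because each group is 1 library. Of 264 recomputed member ratios, 242 stayed inside the counting interval of the value reported and 22 did not, and no ratio past 2-fold changed sign. Of the smaller ones, 11 changed sign, in LNCaP-ENZ48 for IFI6, IFITM2, IFI27 and ISG20, and in RES-B for ISG20, IRF9 and IFITM1. DESeq2 size factors moved the median of all genes by 0.10 in LNCaP-ENZ48, and TMM moved it by -0.11 in RES-B. Over all alternatives the ratio to LNCaP of IFITM2 ran from -3.49 to -3.19 in RES-A and from -2.38 to -2.17 in RES-B, that of IFITM3 from -1.23 to -1.13 and from -1.33 to -1.21, and that of IFI27 in RES-A from 3.98 to 5.00. Without the 5 cells of at least 20 ISG15 UMIs, left out as a choice made after seeing the data, ISG15 had 0.30 in RES-A.

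The choice of genes moved the summaries because it changes which members enter. With a minimum of 1 CPM (7 members) the median ratio was 0.19 after 48 h of ENZ, -0.52 (RES-A) and -0.24 (RES-B), 1 member was higher in RES-A than in LNCaP and 1 lower in RES-B than in RES-A. With 50 CPM (2 members) the medians were 0.26, -0.40 and -0.69, and -0.28 in RES-B against RES-A, with 1 member lower in RES-A, 1 lower in RES-B, and 0 higher in RES-B against RES-A. With cells thinned to 5000 UMIs, 0 members were 2-fold higher in RES-B against RES-A, since IFITM2 stood at 0.99. Without thinning, IFITM1 had at most 4 UMIs in a library, too few for a usable ratio, and BST2 and IRF9 had 15 to 123.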
